A study of Homo sapiens with 83 samples.

Results

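PLD6 and 9 genes of mitochondrial fusion and fission, MFN1, MFN2, OPA1, DNM1L, FIS1, MFF, MIEF1, MIEF2 and PPARGC1A, were followed in 83 RNA-sequencing libraries from 2 human neuroblastoma cell lines. Each was found by its symbol, once, among the 60237 genes of the expression table, so all 10 were present. PLD6 was chosen because its transcript rose strongly with N-MYC in both lines, so its rise is described below without a test, and the other 9 were chosen for their part in mitochondrial dynamics. SHEP and SKNAS cells carried N-MYC-ER, in which N-MYC is joined to an estrogen receptor domain and stays inactive until 4-hydroxytamoxifen (4OHT) is given. MYC-ON cells received 4OHT and MYC-OFF cells ethanol, and both received dexamethasone to align their clocks. RNA was taken every 4 h from circadian time (CT, hours after dexamethasone) 24 to 76. SHEP had 2 series of 14 time points in each condition (28 libraries per group), and SKNAS 1 series, with 14 MYC-OFF and 13 MYC-ON libraries, the latter ending at CT72. The time points of a series come from 1 experiment, so a p-value over time points measures the spread between these libraries, and SKNAS had no repeat of the experiment here.

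Mitochondria constantly fuse and divide. The mitofusins MFN1 and MFN2 join outer membranes and OPA1 joins inner membranes, whereas the dynamin-related GTPase DNM1L (DRP1) constricts and cuts the organelle after being recruited by the outer-membrane proteins MFF, MIEF1 (MiD51), MIEF2 (MiD49) and FIS1. PLD6 (MitoPLD) is an outer-membrane phospholipase that makes phosphatidic acid from cardiolipin, promotes mitofusin-dependent fusion and, in germ cells, takes part in piRNA biogenesis. PPARGC1A encodes PGC-1alpha, a coactivator that drives mitochondrial biogenesis and raises MFN2 in several tissues. MYC is known to stimulate mitochondrial biogenesis, and the study asked how its activation alters transcript levels and their circadian oscillation.

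Levels were deposited as TPM (transcript abundance scaled by gene length and to a sum of 1000000 per library), which keep no depth. The study's methods give only an average read number over libraries, so the depth of each library is unknown and no counting error can be given. The SKNAS libraries differed in their median over tested genes of log2(TPM + 1), which lay between 3.93 and 4.17 in SHEP and between 2.76 and 4.38 in SKNAS. It was under 3.3 in 3 of the 14 SKNAS libraries without active N-MYC and in 4 of the 13 with it, and at least 3.8 in 10 and 3 of them. MYCN, to which RNA of the fusion is assigned, ranged from 255 to 688 TPM in SHEP. There it averaged 555 TPM in MYC-OFF and 377 TPM in MYC-ON and was lower in MYC-ON in 28 of 28 pairs of the same series and CT. In SKNAS it ranged from 13.1 to 86.6 TPM in the 7 libraries of lowest median and from 516 to 1046 TPM in the 13 of highest median. 4OHT acts on the fusion protein, so MYCN RNA does not check the condition labels. Of 8 adrenergic neuroblastoma markers, PHOX2A averaged 232 TPM in SKNAS MYC-OFF and 66.7 TPM in SKNAS MYC-ON and was at 0.0419 TPM or less in SHEP. The 8 markers summed to 28.5 to 55.8 TPM in SHEP, 264 to 611 TPM in SKNAS MYC-OFF and 82.8 to 261 TPM in SKNAS MYC-ON. The 6 mesenchymal markers, led by VIM, summed to 3826 to 5180 TPM in SHEP MYC-OFF and 3146 to 4773 TPM in MYC-ON, and in SKNAS to 775 to 2057 TPM and 662 to 2597 TPM. Of these 6, 1 was called higher and 3 lower in SHEP and 1 and 2 in SKNAS. Over all genes 33% were called higher and 38.9% lower in SHEP, and 13.9% and 34.2% in SKNAS. In SKNAS the library median as covariate gave 3 higher and 1 lower, and median-of-ratios rescaling gave 2 and 1. Over all SKNAS genes the covariate gave 28.3% higher and 25.9% lower, and rescaling 3829 and 3319 of 13886. The median log2 change of the 6 there was -0.44 on TPM, 0.19 with the covariate and -0.09 after rescaling. FN1, fibronectin, fell from a mean of 340 to 67.8 TPM in SHEP (log2 change -2.24) and from 15.4 to 3.72 TPM in SKNAS (-1.76), and YAP1 fell by 0.26 and 0.91 on the log2 scale, the latter being -0.02 with the library median as covariate and not called. The 5 markers of other cell types summed to at most 1.00 TPM in SHEP, 13.3 to 132 TPM in SKNAS MYC-OFF and 3.54 to 62.1 TPM in SKNAS MYC-ON. INS was at 0 throughout, and PTPRC, the leukocyte common antigen, averaged 80.4 TPM (SD 43.1, n = 14) in SKNAS MYC-OFF and 21.5 TPM (SD 18.6, n = 13) in SKNAS MYC-ON but was at 0.0118 TPM or less in SHEP. The part of these markers in the results below was not tested.

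The promoters of the 4 members that were called in SHEP with the largest changes, OPA1 and MFF (higher) and FIS1 and MIEF2 (lower), are shown so that the start regions of the genes that moved most, in each direction, can be compared. Each window runs from 250 bases before to 50 bases after a RefSeq start site (GRCh38.p14), written 5′ to 3′ on the gene's strand. Distances are from that site, which can differ from the start of the gene span given below. The FIS1 window lies inside its gene span. MFF and MIEF2 have more than 1 window, of which the first is shown. Capitals mark CCGGAAG, the ETS core, GCATGCGC, an NRF1 core, and CACGTG, the E-box read by MYC and by CLOCK-BMAL1, each searched on both strands.
OPA1, chr3:193592958-193593257, plus strand: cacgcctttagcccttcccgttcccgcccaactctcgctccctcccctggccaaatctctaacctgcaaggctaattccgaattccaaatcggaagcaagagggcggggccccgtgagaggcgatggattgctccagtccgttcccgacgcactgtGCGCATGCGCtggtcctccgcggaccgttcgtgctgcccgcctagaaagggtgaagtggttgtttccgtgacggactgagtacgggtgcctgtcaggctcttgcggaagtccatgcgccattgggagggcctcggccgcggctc
MFF, chr2:227325001-227325300, plus strand: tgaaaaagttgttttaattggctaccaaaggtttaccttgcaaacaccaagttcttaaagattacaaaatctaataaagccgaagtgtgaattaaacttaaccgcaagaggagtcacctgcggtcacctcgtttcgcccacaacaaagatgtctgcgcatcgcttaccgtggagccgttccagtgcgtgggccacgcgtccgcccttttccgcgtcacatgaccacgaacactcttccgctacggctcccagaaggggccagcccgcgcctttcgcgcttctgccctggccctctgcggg
FIS1, chr7:101245032-101245331, minus strand: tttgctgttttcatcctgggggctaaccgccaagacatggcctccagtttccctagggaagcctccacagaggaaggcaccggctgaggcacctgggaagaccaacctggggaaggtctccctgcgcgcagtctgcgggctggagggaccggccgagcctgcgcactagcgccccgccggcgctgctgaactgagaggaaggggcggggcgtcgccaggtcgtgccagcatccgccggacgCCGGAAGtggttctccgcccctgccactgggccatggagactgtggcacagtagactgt
MIEF2, chr17:18260412-18260711, plus strand: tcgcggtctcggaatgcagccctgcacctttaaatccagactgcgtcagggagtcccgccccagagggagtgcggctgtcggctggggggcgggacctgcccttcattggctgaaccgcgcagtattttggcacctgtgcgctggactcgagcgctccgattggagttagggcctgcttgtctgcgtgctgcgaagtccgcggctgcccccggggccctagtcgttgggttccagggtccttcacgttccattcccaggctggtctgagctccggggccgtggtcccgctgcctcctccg
OPA1 held the NRF1 core 94 and 92 bases before its start, which is 1 overlapping stretch read on both strands. FIS1 held the ETS core 9 bases before its start, and no motif fell in these windows of MFF and MIEF2. The search covered 13 windows of 9 members. PLD6 had no window and was not searched, so nothing is known here of motifs at its start. The ETS core also lay in MFN1, 63 and 22 bases before its start, and in MIEF1, 20 bases before it. CACGTG lay in 1 window of PPARGC1A, 123 bases before its RefSeq start site, and in no other window searched. That window, chr4:24472856-24473155 on the minus strand, lies outside the Gencode span of the gene given below. Among all 35116 promoter windows of the same length, 10.3% held the ETS core, 3.05% the NRF1 core and 7.26% the E-box. A match is a run of letters and not a measured binding site, and N-MYC binding was not measured in these libraries.

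PLD6 (ENSG00000179598, chromosome 17, 17200995 to 17206333 on the minus strand, Gencode 44 on GRCh38) was a low transcript in MYC-OFF cells and a middling one in MYC-ON cells. In SHEP it lay between 2.93 and 4.64 TPM in the 28 MYC-OFF libraries, with a median of 4.11, and between 18.7 and 29.5 TPM in the 28 MYC-ON libraries, with a median of 22.2. In SKNAS it ran from 3.02 to 13.6 TPM with a median of 8.25 in MYC-OFF, and from 24.7 to 94.96 TPM with a median of 57.5 in MYC-ON. The groups did not overlap in either line, and PLD6 was higher in MYC-ON in 28 of 28 SHEP and 13 of 13 SKNAS pairs of the same series and CT. The ratio of mean TPM was 5.57 in SHEP and 6.94 in SKNAS, and the log2(TPM + 1) difference was 2.22 (limma SE 0.0377) and 2.63 (SE 0.197), a scale that understates the change of low genes. Among all tested genes 12.5% in SHEP and 4.41% in SKNAS had ranges that did not overlap, and because PLD6 was chosen on this contrast nothing is read from that. As these are bulk RNA samples, more cells that express PLD6 and more PLD6 RNA per cell cannot be told apart.

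**Figure D1:**
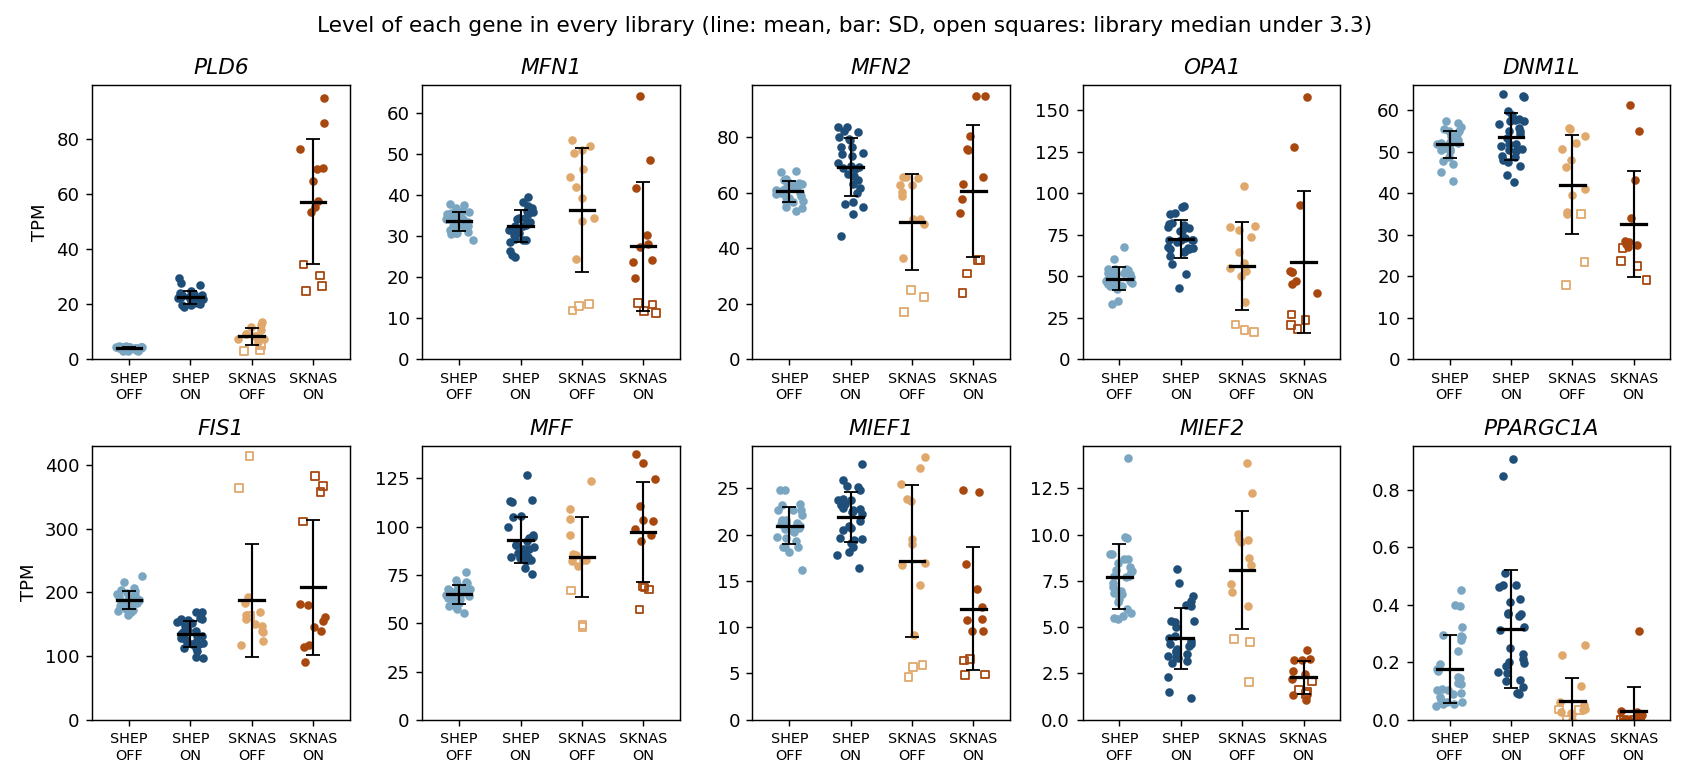
Level of each of the 10 genes in TPM (y axis, from 0) in every library of the 4 groups (x axis), with the mean (line) and SD (bar, cut off at 0). PLD6 in MYC-ON lies wholly above MYC-OFF in both lines, and the 7 SKNAS libraries with a library median under 3.3 (open squares) lie low for most genes but high for FIS1 in 6 of 7 cases.

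The position of PLD6 among the 10 genes changed with N-MYC, and since TPM are per length these levels can be ranked. PLD6 was chosen for its rise with N-MYC, so nothing is read from its change of position. In SHEP MYC-OFF cells the order of mean TPM was FIS1 (188), MFF (65.1), MFN2 (60.5), DNM1L (51.8), OPA1 (48.6), MFN1 (33.5), MIEF1 (21.0), MIEF2 (7.73), PLD6 (4.02) and PPARGC1A (0.177). MFF and MFN2, and DNM1L and OPA1, differed by less than the sum of their SDs. In SHEP MYC-ON cells PLD6 (22.4 TPM) passed MIEF2 and stood beside MIEF1 (21.9 TPM), from which it differed by less than their SDs. In SKNAS MYC-ON cells it averaged 57.1 TPM, beside OPA1 (58.3 TPM) and MFN2 (60.6 TPM), and of all neighbours in that order only MIEF1 and MIEF2, and MIEF2 and PPARGC1A, differed by more than their SDs.

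Within a group PLD6 was steady in SHEP. Series 1 and 2 averaged 4.04 and 4.00 TPM in MYC-OFF and 23.2 and 21.7 TPM in MYC-ON. The early (CT24 to CT36) and late (CT64 to CT76) differences between the conditions were 2.16 and 2.28 on the log2(TPM + 1) scale, over 8 pairs each. The linear trend of PLD6 over circadian time was 0.02 log2 per 24 h (SE 0.0453) in MYC-OFF and 0.05 (SE 0.0395) in MYC-ON, neither called at a limma adjusted p of 0.81 and 0.336. After median-of-ratios rescaling the MYC-ON trend was called, at 0.10 per 24 h (limma adjusted p = 0.0387). In SKNAS, PLD6 moved with the library median. In MYC-OFF it lay at 3.02 to 5.12 TPM in the 3 libraries of lowest median and 7.34 to 13.6 TPM in the 10 of highest, and in MYC-ON at 24.7 to 34.3 TPM in the lowest 4 and 76.3 to 95.0 TPM in the highest 3. At medians of 3.3 to 3.8 it lay at 6.19 TPM in 1 MYC-OFF library and at 53.5 to 69.5 TPM in 6 MYC-ON libraries. With the library median as covariate the SKNAS log2 difference was 3.03 (SE 0.129). Because PLD6 was chosen on this contrast, nothing is read from these values. Before N-MYC activation PLD6 was already higher in SKNAS than in SHEP, a contrast the choice of the gene did not use, by 0.79 on the log2 scale (SE 0.109, limma adjusted p = 1.05e-07), and by 1.07 with the covariate. In that MYC-OFF comparison 32.1% of 14926 genes were called higher and 46.4% lower in SKNAS.

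Exons of PLD6 share 176 bases with MPRIP on the opposite strand and 450 bases with a readthrough gene (ENSG00000264187) on the same strand. The readthrough gene averaged 0.154 TPM or less in all 4 groups. MPRIP averaged 102 TPM without and 88.2 TPM with active N-MYC in SHEP, and 135 and 100 TPM in SKNAS. Within each line its mean was lower in MYC-ON, where that of PLD6 was higher. Between the lines both genes had the higher mean in SKNAS, in either condition. The part of MPRIP in the PLD6 values was not tested. Whether the libraries kept strand is not given in the sources used here.

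Genes with a pattern like that of PLD6 were ranked by Pearson's r on log2(TPM + 1) over all 83 libraries among 14870 genes, as a description. The closest were ZNF330 (r = 0.965), BCCIP (0.960), EPOP (0.958), RPIA (0.955) and NR1D1 (0.954). EPOP had a mean of 5.41 TPM without and 33.6 TPM with active N-MYC in SHEP, and 10.8 and 71.0 TPM in SKNAS, and NR1D1, the clock repressor REV-ERBalpha, was at 4.93 and 35.1 mean TPM in SHEP and 7.26 and 46.6 in SKNAS. The points share the libraries, the lines and the treatment, and after median-of-ratios rescaling only EPOP of these 5 stayed among the closest 5. Among the other members MFF had the highest r with PLD6 (0.73) and MIEF2 the lowest (-0.65), values that hold the group contrast on which PLD6 was chosen. With each group's mean removed MIEF1 (0.82), MFN1 (0.80) and MFN2 (0.80) stood above MFF (0.61), MIEF2 was at 0.49 and only FIS1 was below 0 (-0.76), and after rescaling as well the members with a mean above 1 TPM lay between -0.39 and 0.29. With each group's mean removed the closest genes were PSMF1 (r = 0.895), AEN (0.893), EPDR1 (0.893), TMED2 (0.891) and MCL1 (0.890). After rescaling the highest such r was 0.576, for AEN, against 0.893 for the same gene before it.

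The first comparison asked which fusion and fission genes changed with activated N-MYC in SHEP. Of 14362 genes tested, 33% were called higher and 38.9% lower (limma with Benjamini-Hochberg adjustment, p up to 0.05 after adjustment and a minimum absolute log2 change of 0.15). Of the 8 members tested beside PLD6, 3 rose, 2 fell and 3 were not called, so the number of calls was no higher than the background share. OPA1, MFF and MFN2 rose, FIS1 and MIEF2 fell, and MFN1, DNM1L and MIEF1 were not called. With the library median as covariate DNM1L (0.15) and MIEF1 (0.17) were called higher too, while the directions of the 5 stayed.

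Among the fusion genes, OPA1 (ENSG00000198836, chromosome 3, 193593144 to 193697811, plus strand) changed most. It ranged from 32.9 to 67.3 TPM with a median of 47.3 in SHEP MYC-OFF and from 42.9 to 92.2 TPM with a median of 71.97 in MYC-ON. The ranges overlapped, but 18 of 28 MYC-ON libraries lay above every MYC-OFF library, and 26 of 28 pairs were higher in MYC-ON. On the log2 scale it rose by 0.56 (SE 0.0608, limma adjusted p = 1.8e-11). MFN2 (chromosome 1, 11980181 to 12015211, plus strand) ranged from 53.4 to 67.8 TPM in MYC-OFF, median 60.9, and from 44.2 to 83.9 TPM in MYC-ON, median 69.5. Its MYC-ON libraries lay on both sides of the MYC-OFF range, 17 above it and 2 below it. The log2 increase was 0.18 (SE 0.0372, limma adjusted p = 3.45e-05), and it was not called in series 2 alone (0.11, limma adjusted p = 0.137) or with the 2 series means per condition as replicates (limma adjusted p = 0.0815). MFN1 (chromosome 3, 179347709 to 179394936, plus strand), with a median of 33.7 TPM in MYC-OFF and 32.4 TPM in MYC-ON, was not called (log2 change -0.05, SE 0.0395, limma adjusted p = 0.205). The mean ratio of MFN2 to MFN1 within a library was 1.81 (SD 0.164, n = 28) in MYC-OFF and 2.18 (SD 0.491, n = 28) in MYC-ON.

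Among the fission genes MFF rose and FIS1 and MIEF2 fell in SHEP, while MIEF1 and DNM1L itself were not called. MFF (ENSG00000168958, chromosome 2, 227325151 to 227357833, plus strand) ranged from 55.2 to 76.8 TPM in SHEP without active N-MYC, median 64.7, and from 75.3 to 127 TPM in MYC-ON, median 89.1. Of the MYC-ON libraries 27 of 28 lay above every MYC-OFF library, and the log2 increase was 0.50 (SE 0.0385, limma adjusted p = 2.68e-16). FIS1 (ENSG00000214253, chromosome 7, 101239458 to 101252316, minus strand) ranged from 164 to 225 TPM in MYC-OFF, median 185, and from 96.8 to 170 TPM in MYC-ON, median 133. It was lower in all 28 pairs and below every MYC-OFF library in 26 of 28, and its log2 difference was -0.49 (SE 0.0406, limma adjusted p = 5.2e-15). The mean ratio of MFF to FIS1 within a SHEP library went from 0.347 (SD 0.028, n = 28) in MYC-OFF to 0.717 (SD 0.20, n = 28) in MYC-ON. In SKNAS it was 0.536 (SD 0.231, n = 14) in MYC-OFF and 0.631 (SD 0.400, n = 13) in MYC-ON.

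MIEF2 (ENSG00000177427, chromosome 17, 18260597 to 18266552, plus strand) ranged from 5.42 to 14.1 TPM in SHEP MYC-OFF, median 7.72, and from 1.19 to 8.14 TPM in MYC-ON, median 4.10. It was lower in 27 of 28 pairs, and the log2 difference was -0.73 (SE 0.0928, limma adjusted p = 1.23e-09). Its paralogue MIEF1 (chromosome 22, 39499432 to 39518132, plus strand) had a median of 21.1 TPM in MYC-OFF and 22.4 TPM in MYC-ON and was not called (log2 change 0.06, SE 0.0396, limma adjusted p = 0.176). DNM1L (chromosome 12, 32679200 to 32745650, plus strand) had medians of 52.0 and 53.8 TPM and was not called (log2 change 0.05, SE 0.0337, limma adjusted p = 0.199). The mean ratio of MIEF1 to MIEF2 within a library was 2.82 (SD 0.606, n = 28) in MYC-OFF and 5.72 (SD 2.43, n = 28) in MYC-ON.

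PPARGC1A (chromosome 4, 23755041 to 23904089, minus strand) was barely detected and stayed under the mean of 1 TPM needed for a test. In SHEP it ranged from 0.0482 to 0.45 TPM without and from 0.088 to 0.904 TPM with active N-MYC. In SKNAS it was listed at 0 in 2 of the 14 libraries without and 9 of the 13 with active N-MYC and never passed 0.309 TPM. Its relatives PPARGC1B and PPRC1, which act on the same mitochondrial programme, were higher, and both rose with N-MYC. PPARGC1B went from 1.67 to 3.25 mean TPM in SHEP and from 1.37 to 2.73 in SKNAS, and PPRC1 from 29.8 to 40.7 and from 27.2 to 44.8.

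The second comparison asked the same of SKNAS, where 13.9% of 13886 genes were called higher and 34.2% lower. MIEF2 fell and was the only one of the 8 members called. It ranged from 2.05 to 13.9 TPM in MYC-OFF, median 8.55, and from 1.09 to 3.77 TPM in MYC-ON, median 2.18, and was lower in 13 of 13 pairs. The log2 difference was -1.38 (SE 0.191, limma adjusted p = 2.88e-05), and it was called under every alternative tried. For the rest the spread inside each group was wide. OPA1 ran from 16.4 to 104 TPM in MYC-OFF and from 18.2 to 158 TPM in MYC-ON, and FIS1 from 117 to 414 TPM and from 90.9 to 382 TPM, so the groups overlapped for both genes.

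That spread went with the library median. Within each SKNAS group r with the library median was at least 0.646 for the other 8 members with a mean above 1 TPM, reaching 0.99 for MIEF1, and -0.79 and -0.96 for FIS1 (n = 14 MYC-OFF and n = 13 MYC-ON libraries, a description in which each point is a whole library). FIS1 stood at 311 to 382 TPM in the 4 MYC-ON libraries of lowest median and at 90.9 to 118 TPM in the 3 of highest. In MYC-OFF it stood at 163, 364 and 414 TPM in the 3 libraries of lowest median, the lowest of these at CT56. OPA1 showed the reverse, at 18.2 to 26.9 TPM in the 4 MYC-ON libraries of lowest median and 93.2 to 158 TPM in the 3 of highest.

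**Figure D2:**
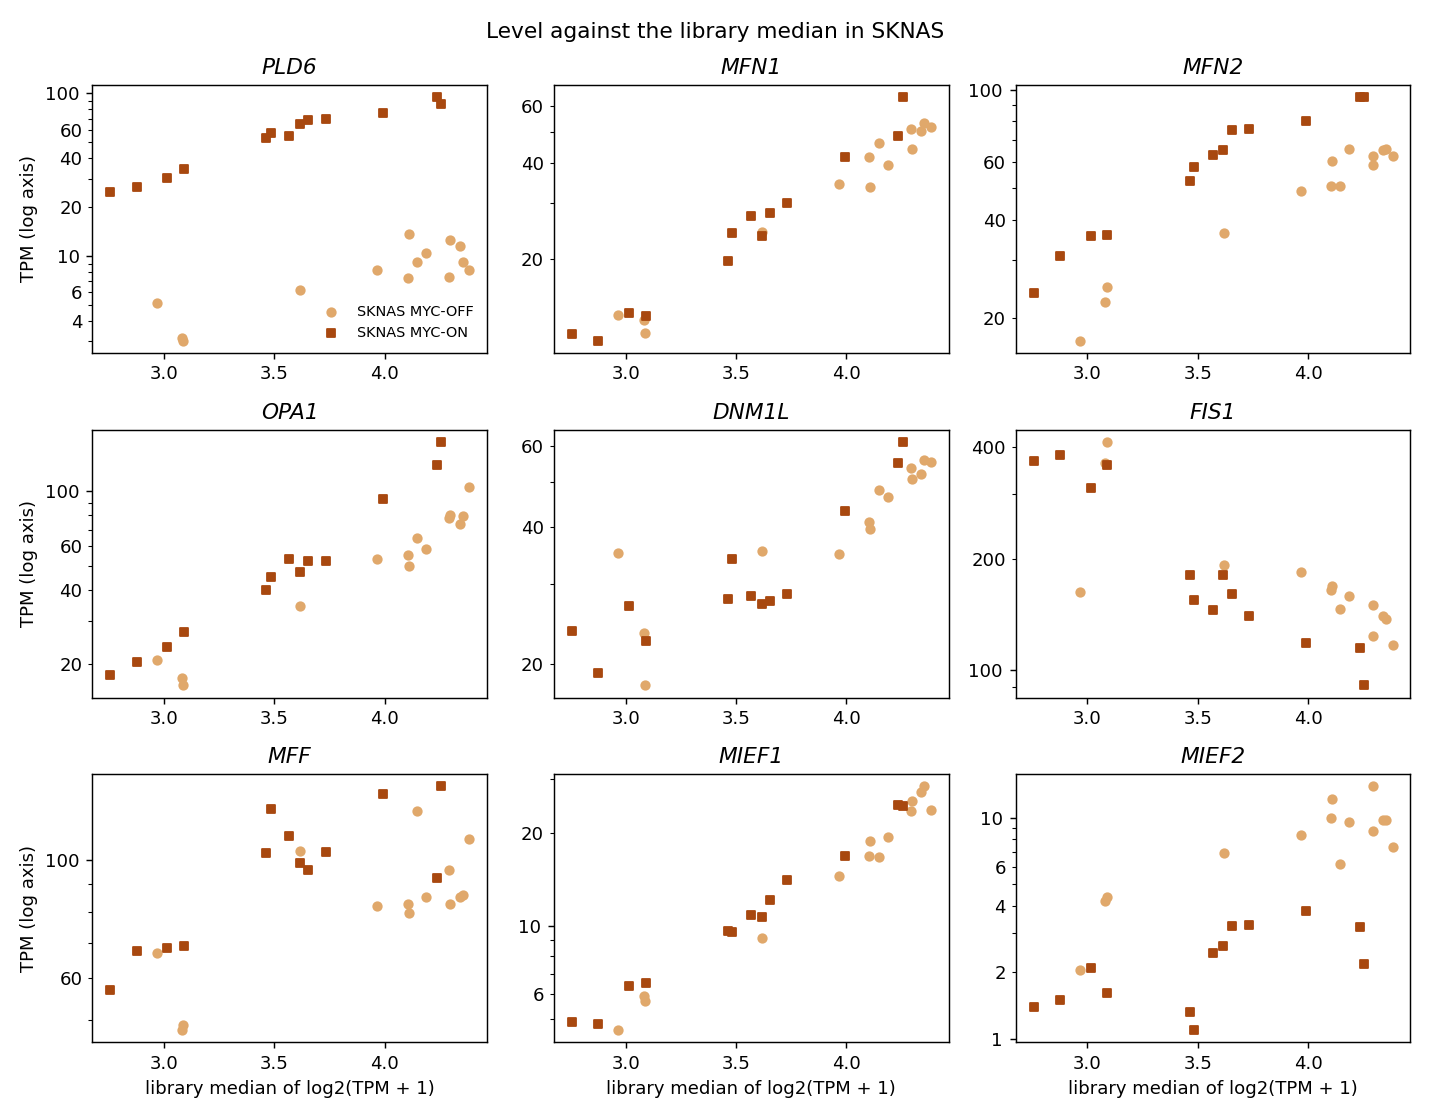
TPM of 9 genes (log y axis) against the library median of log2(TPM + 1) (x axis) in the 14 MYC-OFF (circles) and 13 MYC-ON (squares) SKNAS libraries. At a like library median PLD6 and MFN2 lie higher and MIEF2 lower in MYC-ON, MFN1 and MIEF1 rise with the median in both conditions, and FIS1 falls as the median rises.

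The median log2 change over all SKNAS genes was -0.29 on TPM, 0.01 with the library median as covariate and 0.03 after median-of-ratios rescaling. Relative to that median, OPA1 changed by 0.25, MFN2 by 0.58, MFF by 0.48 and DNM1L by -0.09 on TPM. With the covariate, where 28.3% of genes were called higher and 25.9% lower, 4 of the 8 members were called higher and 1 lower. MFN2 rose by 0.77 (limma adjusted p = 8.88e-07), OPA1 by 0.69 (1.96e-05), MFF by 0.36 (0.00676) and MFN1 by 0.21 (0.0136), while MIEF2 changed by -1.08. FIS1 was not called under any of these scalings, and its value was 0.09 on TPM, -0.32 with the covariate and 0.46 after rescaling, so its direction depends on the scaling. Restricted to libraries with a median of at least 3.8, where 6.07% of genes were called higher and 8.49% lower and only CT32 and CT44 have both conditions, OPA1 (0.80) and MIEF2 (-1.34) were called.

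**Figure D3:**
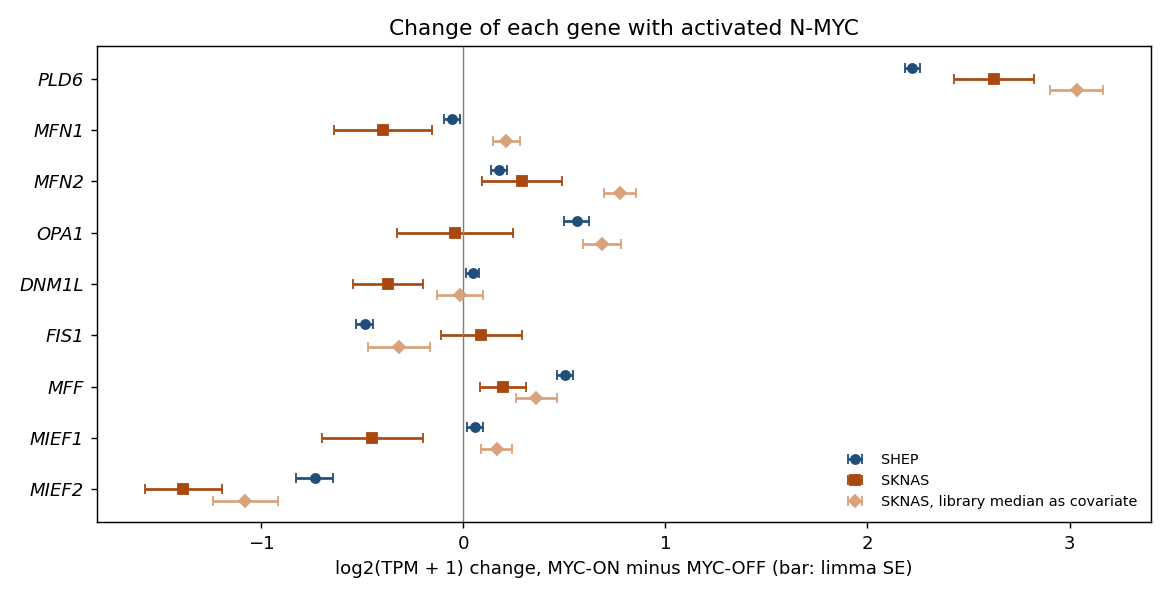
Change in log2(TPM + 1) from MYC-OFF to MYC-ON (x axis, bars are the limma SE) for 9 genes in SHEP, in SKNAS, and in SKNAS with the library median as covariate. OPA1 is at 0.56 in SHEP, -0.04 in SKNAS and 0.69 in SKNAS with the covariate, whereas MIEF2 is below 0 and PLD6 above 2 in all 3 fits.

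The third comparison tested whether the N-MYC effect differed between the lines, as an interaction over all 83 libraries. Of 14870 genes, 13.4% had a higher and 38.1% a lower effect in SKNAS, and of the 8 members 1 was higher and 5 were lower. The median difference over all genes was -0.22 on TPM and 0.03 with the library median as covariate. The effect on FIS1 was higher in SKNAS by 0.58 (SE 0.139, limma adjusted p = 0.00048). That on OPA1 was lower by -0.60, on DNM1L by -0.42, on MFF by -0.31, on MIEF1 by -0.51 and on MIEF2 by -0.65. With the library median as covariate 25.4% of genes were called higher and 21.7% lower, and of the members only MFN2 was called, higher in SKNAS by 0.53 (limma adjusted p = 1.06e-09). MIEF2 thus fell in both lines, while its larger fall in SKNAS (-0.65) was not called with the covariate (-0.38, limma adjusted p = 0.0765). In MYC-OFF cells MFF was higher in SKNAS than in SHEP (0.33, limma adjusted p = 0.000219), and MFN2 (-0.39), DNM1L (-0.35) and MIEF1 (-0.45) were lower. With the covariate MFN2 and DNM1L lay within 0.15 of SHEP, MIEF1 was at 0.00, and MFF stayed higher, by 0.47. There OPA1 (0.47), MFN1 (0.34) and MIEF2 (0.29) were also called higher in SKNAS and FIS1 (-0.35) lower, and the median of all genes moved from -0.18 to 0.05.

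The linear trend over circadian time showed a further difference in SHEP. By the paper's methods N-MYC was activated 24 h before dexamethasone was given. In MYC-ON cells time since activation, time since dexamethasone and time in culture therefore rose together. Their separate parts in the trends were not tested. In MYC-OFF cells, where the linear trend was called upward in 5.76% and downward in 10.5% of 14264 genes, only MFN1 had a called trend (-0.08 log2 per 24 h, limma adjusted p = 0.032), which was lost under most alternatives. In MYC-ON cells 20.3% of 14261 genes had an upward and 36.3% a downward trend, and 6 of the 9 members tested had one, PLD6, OPA1 and DNM1L being the others. MFN2, FIS1 and MFF were called under every alternative, whereas MIEF1 and MIEF2 were not called with the covariate or in series 2 alone, MFN1 was not called without the filter or in series 1 alone, and DNM1L was called in series 1 alone (-0.14). MFN2 fell by 0.28 per 24 h (SE 0.0295, limma adjusted p = 6.21e-09), FIS1 by 0.26, MIEF1 by 0.14 and MIEF2 by 0.38, and MFF rose by 0.17 and MFN1 by 0.11.

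The trends of the conditions were then compared directly, a test added after the trends had been seen, in which 16% of genes had a more upward and 26.8% a more downward trend in MYC-ON. It called 4 of the 9 members, a number near the background share. The trend of MFN2 was lower in MYC-ON by -0.25 per 24 h (SE 0.0355, limma adjusted p = 1.33e-07) and that of FIS1 by -0.22 (SE 0.0401, limma adjusted p = 9.31e-06). Those of MFN1 (0.19, limma adjusted p = 0.00243) and MFF (0.18, limma adjusted p = 0.00239) were higher, and MFN1 was not called in series 1 alone (0.09, limma adjusted p = 0.281). In MFN2 the difference between conditions faded and turned. The mean of the 2 series was 66.4 TPM in MYC-OFF and 82.98 TPM in MYC-ON at CT24, 61.1 and 65.1 TPM at CT64, and 58.1 and 50.5 TPM at CT72. FIS1 parted further, from 192 and 156 TPM at CT24 to 174 and 110 TPM at CT72. MFF went from 68.9 and 81.9 TPM at CT24 to 63.7 and 108 TPM at CT68, and was at 65.9 and 91.2 TPM at CT76. MFN1 was lower in MYC-ON at first, with a mean log2 difference of -0.22 over the 8 pairs from CT24 to CT36, and 0.10 over the 8 pairs from CT64 to CT76. The difference in MFN2 over the same pairs was 0.35 and then -0.09.

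**Figure D4:**
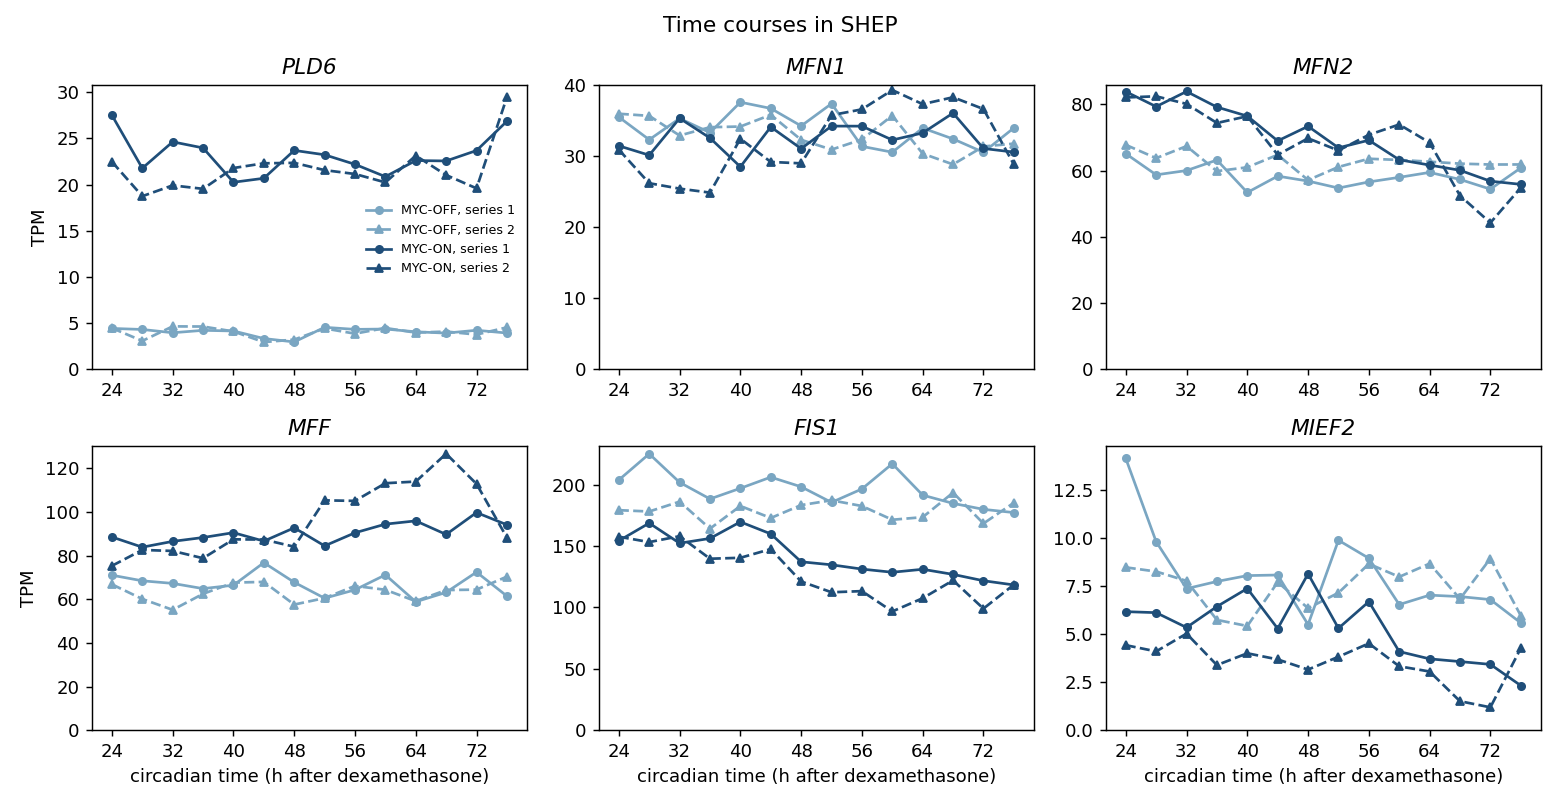
TPM (y axis, from 0) of 6 genes over circadian time (x axis, hours after dexamethasone) in SHEP, for both series of each condition. PLD6 keeps its distance throughout, MFN2 starts higher in MYC-ON and ends lower, and FIS1 and MFF move further from MYC-OFF in the later time points.

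In SKNAS no member had a called trend. The slope of PLD6 there was -0.56 per 24 h in MYC-OFF (limma adjusted p = 0.153) and -0.33 in MYC-ON (limma adjusted p = 0.786). Over all genes 0% were called in MYC-OFF and 0.0299% of 13365 in MYC-ON, and 0.0576% in the comparison of the trends, with 4597 genes at an unadjusted p under 0.05 in MYC-OFF. A 24 h rhythm, tested with cosine and sine terms by a limma F test, was called in no member in any group. It was called in 0.126% of genes in SHEP without and 0.014% with active N-MYC, and in 0% in both SKNAS groups, where 58 genes without and 32 with active N-MYC had an unadjusted p under 0.05. The fitted amplitude of PLD6 in SHEP was 0.11 without and 0.06 with active N-MYC (limma adjusted p = 0.525 and 0.655). The lowest unadjusted p among the members was that of MFN2 in SHEP MYC-ON (0.0282, limma adjusted p = 0.425). The rhythms of the conditions differed in 0% of genes in either line by limma's adjusted p, with 691 genes in SHEP and 69 in SKNAS at an unadjusted p under 0.05, and OPA1 had the lowest unadjusted p of the members in SHEP (0.0103, limma adjusted p = 0.955).

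The genes around these 10 were read from lists written from general knowledge, with earlier results of these data known. Over all genes 33% were called higher and 38.9% lower in SHEP, and 13.9% and 34.2% in SKNAS. Of 11 genes that support fusion or process OPA1, 8 were called higher and 2 lower in SHEP, and 6 and 1 in SKNAS, with median log2 changes of 0.48 and 0.37 against -0.04 and -0.29 for all genes. The 3 with the largest mean change among those called in the same direction in both lines were MSTO1, which promotes fusion from the cytosol (1.38 in SHEP, 1.298 in SKNAS), AFG3L2, a subunit of the inner-membrane m-AAA protease (0.74 and 0.70), and STOML2, an inner-membrane scaffold (0.94 and 0.49). Of 16 fission support genes 7 were called higher and 7 lower in SHEP, and 3 and 4 in SKNAS, where the covariate gave 6 and 3 and rescaling 7 and 3, and the median change went from -0.17 to 0.12 and 0.19. Here the fission regulators MTFR2 (0.45 and 0.86) and MTFR1 (0.47 and 0.68) rose while MTFR1L fell (-0.31 and -0.95). Over all SKNAS genes the covariate gave 28.3% higher and 25.9% lower, and rescaling 3829 and 3319 of 13886.

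Of 11 genes of MICOS, the complex that shapes cristae, and its partners, 9 were called higher and none lower in SHEP, and 5 higher and none lower in SKNAS, with median changes of 0.24 and 0.32. In SKNAS the number higher was 8, with a median of 0.69, after rescaling, 6 (median 0.23) with the covariate and 1 without libraries of median under 3.8, and in SHEP it was 5 with series means as replicates. CHCHD6 (0.87 and 1.00), MICOS13 (0.71 and 0.83) and CHCHD3 (0.65 and 0.60), all MICOS subunits, changed most. Over all genes 33% were called higher and 38.9% lower in SHEP, and 13.9% and 34.2% in SKNAS. In SKNAS 3829 of 13886 genes were called higher after rescaling, 28.3% with the covariate and 6.07% without libraries of median under 3.8. With series means as replicates 3479 of 14362 genes were called higher in SHEP. Of 14 genes of cardiolipin and phosphatidic acid metabolism, the lipids on which PLD6 acts, 7 were called higher and 4 lower in SHEP, and 4 and 4 of the 13 tested in SKNAS. TRIAP1, which carries phosphatidic acid between the mitochondrial membranes with PRELID1, rose (0.77 and 1.32), while CDS2, a CDP-diacylglycerol synthase (-0.67 and -1.49), and the phospholipase PNPLA8 (-0.91 and -1.001) fell.

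None of the 3 other phospholipase D genes tested was called higher. The share of all genes called higher was 33% in SHEP and 13.9% in SKNAS, and the share called lower 38.9% and 34.2%. PLD1, which makes phosphatidic acid from phosphatidylcholine, fell from a mean of 14.2 to 8.94 TPM in SHEP and, in SKNAS, from 36.7 to 8.27 TPM (log2 change -0.63 and -1.95). PLD3 fell from 221 to 145 TPM and from 251 to 97.1 TPM (-0.62 and -1.28). PLD2 fell in SHEP (-0.67) and was not called in SKNAS (-0.58, limma adjusted p = 0.146, and 0.17 with the covariate). PLD4 and PLD5 averaged under 0.31 TPM in all 4 groups. Of 15 piRNA pathway genes only TDRKH and MOV10L1 reached a mean of 1 TPM in any group. TDRKH, a mitochondrial Tudor protein, rose in SHEP (4.38 to 8.59 mean TPM, log2 change 0.81) and not in SKNAS (3.43 and 3.35 mean TPM, -0.01, limma adjusted p = 0.975), where it was called with the covariate (0.43). The helicase gene MOV10L1 fell in SKNAS (-0.997) and was under the threshold for a test in SHEP, as it was in SKNAS without CT24, CT28, CT32 or CT60, and it was not called without libraries of median under 3.8.

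Of 6 tested mitophagy genes none was called higher, and 3 fell in SHEP and 4 in SKNAS. After rescaling 1 was called higher in SHEP. Over all genes 33% were called higher and 38.9% lower in SHEP, and 13.9% and 34.2% in SKNAS. After rescaling 5167 of 14362 genes were called higher in SHEP. BNIP3L (NIX), an outer-membrane mitophagy receptor, changed by -1.20 in SHEP and -1.34 in SKNAS, and PINK1, the kinase that marks damaged mitochondria, by -0.82 and -0.95. Of 8 genes of mitochondrial transport 1 was called higher and 4 lower in SHEP, and none higher and 3 lower in SKNAS. In SKNAS the covariate gave 1 higher and 2 lower and rescaling 1 and 3. The median change there went from -0.60 on TPM to 0.03 and -0.26. The called ones included ARMCX3 (-1.02 and -1.25), SNPH, which anchors mitochondria in axons (-1.14 and -1.10), and TRAK2, an adaptor of the kinesin motor (-0.54 and -0.97, and -0.22 with the covariate, not called). Of 12 tested biogenesis regulators and AMPK subunits 8 were called higher and 1 lower in SHEP, and 4 and 3 in SKNAS, where the covariate gave 9 and 1. TFB1M, which methylates mitochondrial ribosomal RNA, rose by 0.92 and 0.61, PPARGC1B by 0.66 and 0.57 and PPRC1 by 0.43 and 0.73, so TFB1M changed most of these 3 in SHEP and PPRC1 in SKNAS. With the covariate the SKNAS values were 0.58, 1.03 and 1.116. Over all SKNAS genes the covariate gave 28.3% higher and 25.9% lower, and rescaling 3829 and 3319 of 13886.

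**Figure D5:**
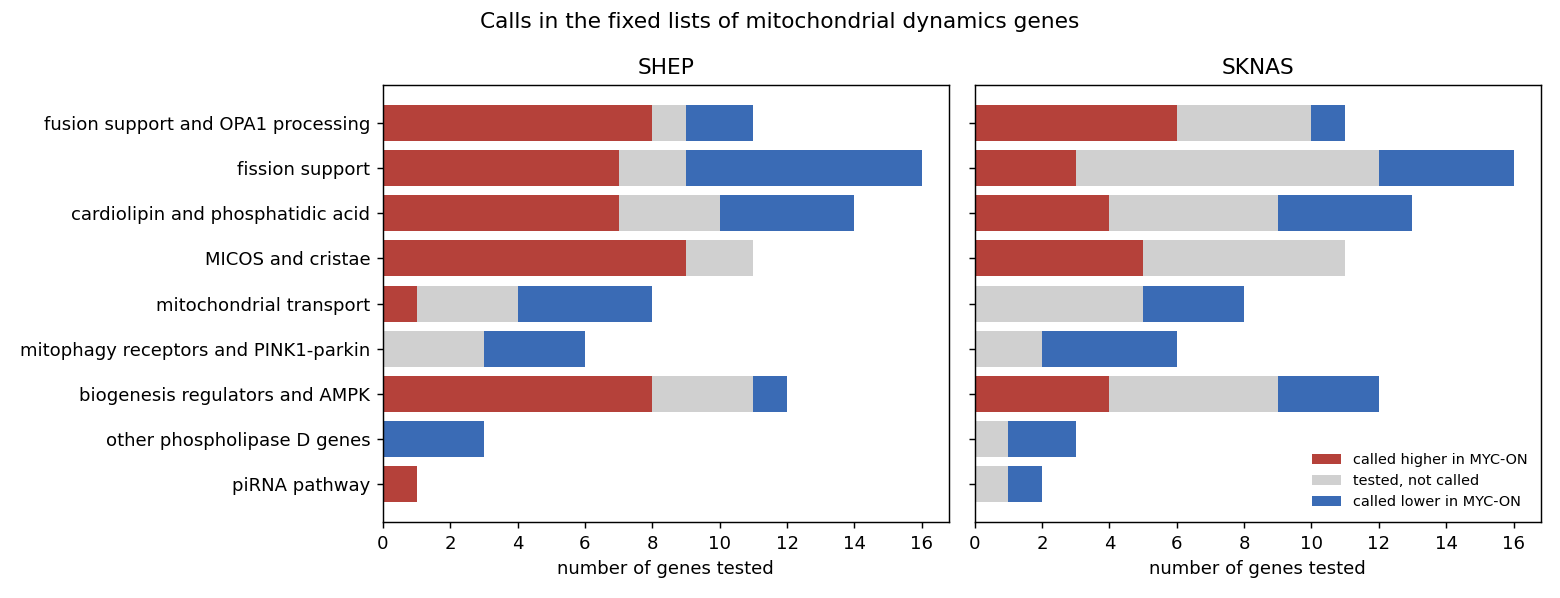
Number of tested genes (x axis) in each of 9 lists (y axis) that were called higher, not called or called lower in MYC-ON, in SHEP (left) and SKNAS (right). The MICOS list has 9 of 11 genes higher in SHEP and none lower in either line, and the mitophagy list has none higher on TPM. Of all genes tested 33% were called higher and 38.9% lower in SHEP, and 13.9% and 34.2% in SKNAS.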

How the data were processed

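The authors quantified polyadenylated RNA with Salmon 1.3.0 on GRCh38 and deposited gene-level TPM, and each column sums to 1000000. The study's methods fitted a model to counts, which TPM cannot enter, so the tests here used limma 3.58.1 (R 4.3.3, trend on) on log2(TPM + 1), per line, with CT as a factor, time points as replicates and genes of mean TPM of at least 1. Calls needed a p up to 0.05 after Benjamini-Hochberg adjustment over all genes and, for levels, a minimum absolute log2 change of 0.15. The comparison of trends between conditions was added after the trends had been seen. Rhythm models held a mean and slope for each series beside 24 h terms, and trend models a mean for each series, 24 h terms and 1 common slope per condition. The script was tested on simulated data.

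The members and lists were chosen with earlier results of these data known. Named were all members, per list up to 3 genes with the largest mean change among those called in the same direction in both lines, PLD and piRNA genes of at least 1 TPM, and the 5 genes most like PLD6.

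The design text gives SHEP series 1 and 2 as biological replicate experiments, so series numbers pair the conditions. Deviations of the same series in MYC-OFF and MYC-ON correlated at 0.489 over 14362 genes. Gene positions came from Gencode 44 and promoters from RefSeq, where 9 of 10 members matched and PLD6 did not. The study's other cell line and repeat SKNAS series were not analysed here. Alternatives varied the pseudocount (0.1), filter, scaling, library median, time terms, series and libraries.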

Additional observations from a re-analysis of the deposited data

Results flagged for a closer look

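The change with N-MYC differed between the lines for 6 members, by the interaction term of limma over all 83 libraries. On the log2(TPM + 1) scale the effect in SKNAS minus that in SHEP was -0.60 for OPA1, -0.42 for DNM1L, 0.58 for FIS1, -0.31 for MFF, -0.51 for MIEF1 and -0.65 for MIEF2. None of these 6 was called with the library median as covariate, where the values were 0.03, -0.10, 0.23, -0.18, 0.02 and -0.38. The library median in SKNAS averaged 3.92 without and 3.52 with active N-MYC, and its part in the difference was not tested beyond that covariate.

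The linear trend over circadian time differed between MYC-ON and MYC-OFF in SHEP for 4 of the 9 members tested. Over all genes 16% had a more upward and 26.8% a more downward trend in MYC-ON, so the number of calls was near the background share. The difference in log2 per 24 h was 0.19 for MFN1, -0.25 for MFN2, -0.22 for FIS1 and 0.18 for MFF. With the covariate the values were 0.24, -0.22, -0.26 and 0.19, and all 4 were called.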

How the results depend on the processing

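In SHEP the number of the 8 tested members called with N-MYC stayed within 1.5 times the reported 5 under all alternatives, and the replicate block changed no call (OPA1 0.56 with the replicate block, limma adjusted p = 2.19e-11). Without the filter PPARGC1A was called in SHEP (0.15, limma adjusted p = 0.0079). The log2 difference of PLD6 in SHEP was 2.45 with a pseudocount of 0.1. In SKNAS the count of 1 became 5 with the library median as covariate, 3 after rescaling and 2 without libraries of median under 3.8, and leaving out 1 CT gave 1 to 4 (4 without CT52, where DNM1L, MFN1 and MIEF1 were also called lower). OPA1 in SKNAS turned to 0.69 with the covariate and 0.80 without libraries of median under 3.8, and MFN1 to 0.21 with the covariate. The count of 6 members that differed between lines became 1 with the covariate and 2 without either SHEP series, and OPA1 and MIEF1 turned to 0.0322 and 0.0203. The 5 members that differed between lines in MYC-OFF became 3 without SHEP series 2, and with the covariate MFN1 turned to 0.34, MIEF1 to 0.000735 and MIEF2 to 0.29. The 1 called trend in SHEP MYC-OFF (MFN1) became 0 with the covariate, after rescaling, with no filter and without either series. Over all genes, the 1925 higher and 4751 lower calls in SKNAS became 3829 and 3319 after rescaling, 3932 and 3598 with the covariate and 863 and 1207 without libraries of median under 3.8. The 1993 higher and 5666 lower differences between lines became 3801 and 3650, then 3780 and 3227, and 7659 in all became 4751 and 4604 without SHEP series 1 or 2. In MYC-OFF, 4793 higher and 6933 lower genes in SKNAS became 6420 and 5861 with the covariate. The 821 upward and 1496 downward trends in SHEP MYC-OFF became 140 and 137 in series 2 alone and 455 upward in series 1 alone, the 5174 downward trends in MYC-ON became 3306 with the covariate, and the 2305 more upward trends became 1515 in series 2 alone. The 18 rhythmic genes in SHEP MYC-OFF became 6 without the filter, 28 with the covariate and 0 in either series alone, and the 2 in MYC-ON became 1 without the filter and 0 in either series. In SKNAS the called trends (0 in MYC-OFF, 4 in MYC-ON, 8 for their difference) became 10, 103 and 129 with the covariate. The gene counts of the lists stayed within 1.5 times the reported ones in 488 of their fits and moved in 28, most of them in SKNAS. Without libraries of median under 3.8 they were 2 for fusion support, 3 for fission support, 2 for cardiolipin, 1 for MICOS, 1 for mitophagy, 3 for biogenesis and 0 for piRNA genes. The biogenesis count of 7 in SKNAS was also 3 without the filter, 4 without libraries of median under 3.3 and 3 or 4 without CT24, CT28, CT44, CT48 or CT56, and the transport count of 3 was 5 without CT32, CT52 or CT64. The cause was not tested. TPM keep no depth, so what the depth of single libraries limits cannot be given, and PPARGC1A was under the filter in every other fit.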
